A study of Mus musculus with 34 samples.

Results

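The 10 genes described here, Phox2a, Fads6, Unc13a, Atf7, Grin3b, Map3k12, Nav1, Capn12, Khdrbs3 and Samd1, were taken from 25899 gene symbols measured by RNA-seq in mouse cumulus cells (CCs), the granulosa cells that surround the oocyte. They were chosen from these same data, as genes whose diet effect differed most between 4 and 16 weeks of feeding or that were most clearly lower after 4 weeks of high-fat diet (HFD) than of chow diet (CD). Their values in those contrasts are therefore given as a description, with no test. They occupy 12 entries of the count table, because Atf7 and Nav1 have 2 entries each.

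The data comprised 34 libraries, each from about 50 CCs of 1 cumulus-oocyte complex of a superovulated C57BL/6J female. Mice entered the protocols at 8 weeks of age and ate CD (11% of energy from fat per the labels) for 4 weeks (n = 5) or 16 weeks (n = 6), or HFD (58% of energy from fat) for 4 weeks (n = 5) or 16 weeks (n = 7). A further 3 mice were low weight gainers after 16 weeks of HFD. In a separate protocol that raised leptin by injection, females received saline for 16 days (16 C, n = 3) or leptin at a daily total of 100 μg (16 L, n = 5). Whether the mice shared litters or cages is not given in the sources used here. Levels are in CPM, read counts scaled to a common library size with TMM factors over all 34 libraries.

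Most of the 10 genes are best known outside the ovary. Phox2a, Atf7 and Samd1 encode DNA-binding regulators, of autonomic neurons, of the ATF/CREB leucine zipper family and of unmethylated CpG-rich DNA, respectively. Khdrbs3 encodes an RNA-binding splicing regulator of the STAR family. Unc13a primes synaptic vesicles for release, Grin3b is a subunit of NMDA-type glutamate receptors, Map3k12 is the kinase DLK that acts upstream of JNK, and Nav1 (neuron navigator 1) binds microtubule ends. Capn12 belongs to the calpains, proteases that depend on calcium, and Fads6 is a little-studied member of the fatty acid desaturase family.

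The working description of the genes, lower only in 4-week HFD, was not what the levels showed. In all 10 genes the median of 4-week CD was the highest or second highest of the 7 groups, against 36.6% of the 13236 genes that passed the filter over all libraries. The median of 4-week HFD was the lowest of the 7 groups in 5 of the 10 genes (10.7% of all genes). It lay within the range of the 3 groups kept for 16 weeks on a diet (the low weight gainers and both 16-week groups) in 4 genes, below all of them in 5, and above them in 1. With levels scaled by library totals instead (RPM), 4-week HFD was lowest in 3 genes, and 4-week CD was still highest or second highest in all 10. By range, 4-week CD lay entirely above 16-week CD in 4 genes (Phox2a, Unc13a, the short Atf7 entry and Grin3b), as did 4.10% of all genes. No gene had 4-week HFD entirely below 16-week CD, where 1.58% of all genes did, so that a count of 0 among 10 is near that share. Nav1 and Khdrbs3 had 4-week HFD entirely below 16-week HFD (12.3% of all genes), and Fads6, Unc13a, Capn12, Khdrbs3 and Samd1 had it entirely below 16 C (19.6% of all genes). The contrast that chose the genes fixes that 4-week CD is above 4-week HFD, and the other 349 called genes that were lower at 4 weeks and passed over all libraries had 4-week CD highest or second highest in 314 cases. The choice by the diet effect at 16 weeks minus that at 4 weeks also favours high 4-week CD and 16-week HFD. It likewise favours low 4-week HFD and 16-week CD. The positions and counts by range given here are therefore a description and no test.

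**Figure D1:**
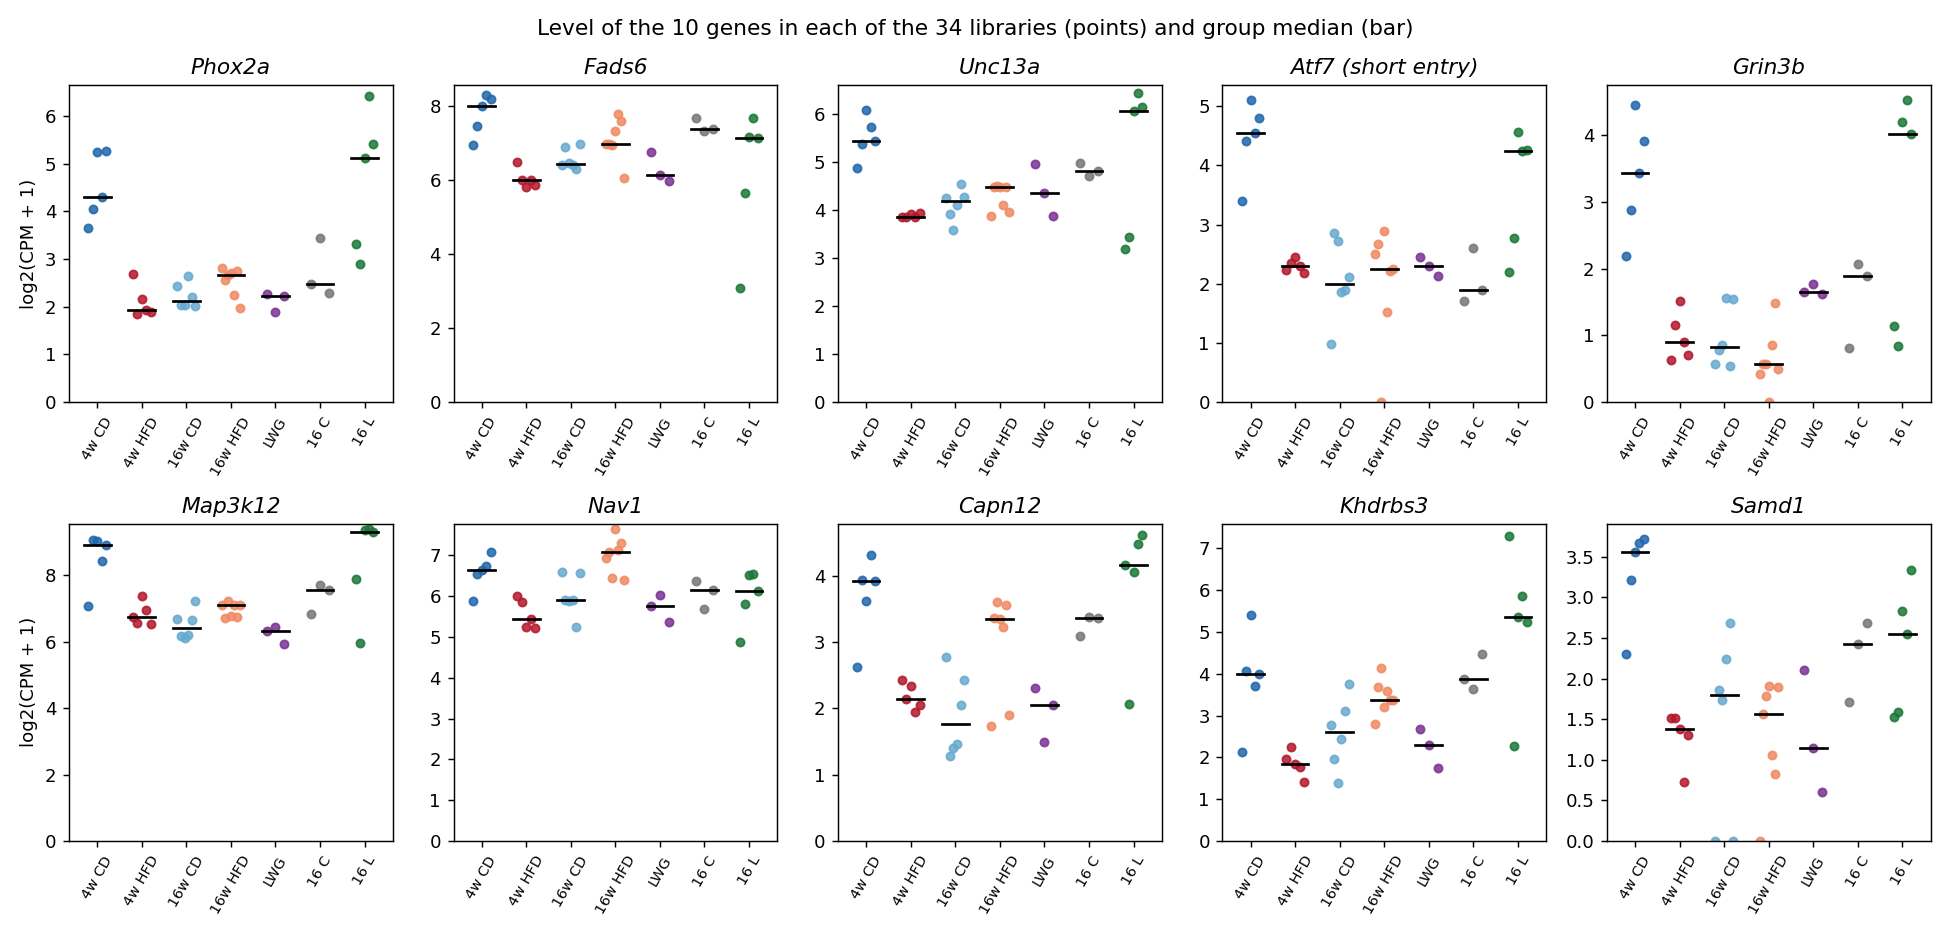
Level of each gene as log2(CPM + 1) in the 34 libraries, with 1 point per library and a bar at the group median (4w and 16w, weeks on diet, and LWG, low weight gainers). In every panel 4-week CD (dark blue) is the highest or second highest group by median, and the 16 L points (green) spread from low to high.

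Counted library by library, the high values lay mostly in 4-week CD and 16 L. Of the 8 highest of the 34 libraries for each gene, 4-week CD held 40 of the 80 places over the 10 genes and 16 L held 27. The 5 4-week HFD libraries and the 3 low weight gainers held none, and 16-week CD held 1. The choice of the genes favours places for 4-week CD and 16-week HFD and few for 4-week HFD and 16-week CD. These places were not counted over all genes. By group median, 16 L was highest in 6 of the 10 genes (20.3% of all genes) and 4-week CD in 3 (16.1%). In 4-week CD, replicates 1, 2, 7 and 8 were among the 8 highest in 9, 10, 9 and 9 genes, while replicate 11 of the same group was there in 3 and was the lowest of its group in all 10. In 16 L, replicates 20, 21 and 23 were each among the 8 highest in 8 genes, replicate 18 in 3 and replicate 19 in none.

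**Figure D2:**
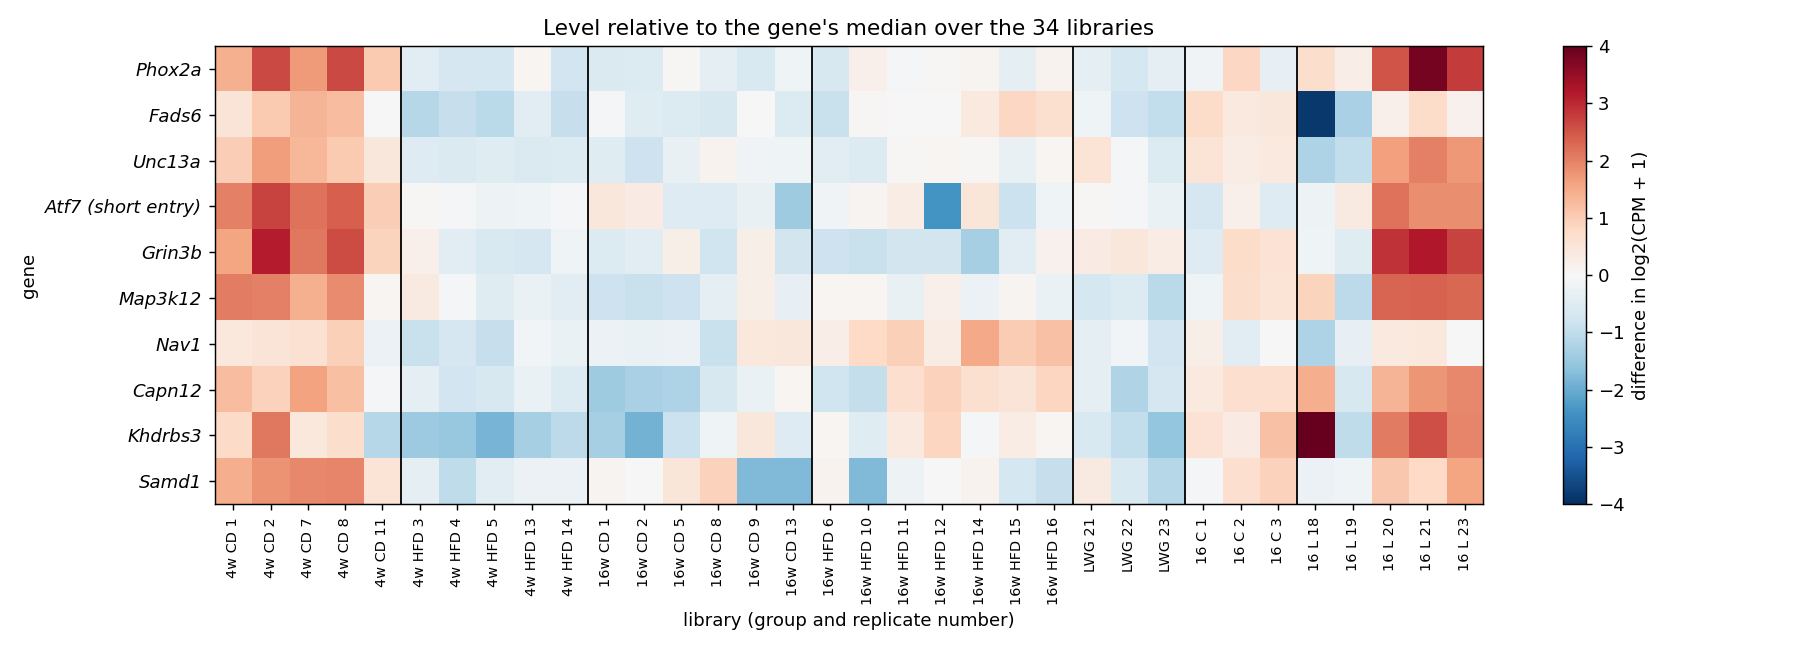
Difference of each library from the gene's own median over the 34 libraries, on the log2(CPM + 1) scale, with genes in rows and libraries in columns by group. The red blocks are 4-week CD replicates 1, 2, 7 and 8 and 16 L replicates 20, 21 and 23, and the 4-week HFD columns hold none of the 8 highest libraries of any gene. The choice of the genes favoured high values in 4-week CD and low values in 4-week HFD.

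These libraries also differed in depth and composition. Total counts ran from 1363065 to 6608945 in 4-week CD, and from 3945350 to 12641896 in 4-week HFD. The 3 high 16 L libraries were the shallowest of their group, with 1104611 to 2241697 counts against 6706288 to 8291016 in the other 2. Over the 34 libraries, the rank correlation of the level with the total count was between -0.57 and -0.09 for the 10 genes (median -0.33), a description over libraries that share groups. The 20 cumulus and granulosa markers were detected in every group, with a summed level of 7455 to 16600 CPM, except in 16 L, where it ranged from 1471 to 8999 CPM. The lowest was 16 L replicate 18, which also had 36460 CPM of the 10 oviduct epithelium markers, against 77.1 to 626 CPM outside 16 L. In 16 L replicates 19, 20, 21 and 23 the oviduct markers summed to 68.0, 1344, 1891 and 533 CPM. The mitochondrial genes summed to 4993, 39040, 5045, 3892 and 3629 CPM in 16 L replicates 18, 19, 20, 21 and 23. The 15 neuron and glia markers in the table summed to 255 to 575 CPM in 4-week CD, 155 to 315 CPM in 4-week HFD and 191 to 608 CPM in 16 L, with Sox10 at 0 in every library. Their sum was 380, 191, 552, 586 and 608 CPM in 16 L replicates 18, 19, 20, 21 and 23. The oocyte markers summed to 593 CPM in 4-week HFD replicate 5, against 0.557 to 3.09 CPM in the other 4-week HFD libraries. The part of these differences in the levels of the 10 genes was not tested. In bulk CCs, fewer cells that use a gene and less of its RNA in each cell cannot be told apart.

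Among the DNA-binding regulators, Phox2a (chromosome 7, 101818313 to 101823166, plus strand, GRCm38) ranked first by p-value for the diet effect at 16 weeks minus that at 4 weeks. Its level in 4-week CD was 11.7, 15.5, 18.7, 37.0 and 37.3 CPM. In 4-week HFD it was 2.58, 2.72, 2.84, 3.46 and 5.48 CPM. Every 4-week HFD library was below every 4-week CD library, with a log2 fold change of -2.79 ± 0.39 (SE). In 16-week CD the lowest, median and highest values were 3.04, 3.38 and 5.30 CPM, in 16-week HFD 2.93, 5.37 and 6.00 CPM, and in the low weight gainers 2.72, 3.65 and 3.80 CPM. These 3 groups overlapped each other and 4-week HFD, and 4-week CD lay above all of them. Phox2a had 6 to 123 reads per library.

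Atf7 gave opposite pictures in its 2 entries. The short entry (chromosome 15, 102528636 to 102529025, minus strand) covers 390 bases with the same ends as the single-exon transcript Atf7-201 in GENCODE M21, and lies within the 3′ UTR of the longer Atf7-210, at its end. The long entry (102536654 to 102625421, minus strand) covers most of the rest of the gene's span. It does not hold the Atf7-210 exon at 102528636 to 102534438. The short entry ranked first of all genes at 4 weeks, at 9.50, 20.3, 22.5, 26.7 and 33.4 CPM in 4-week CD against 3.56, 3.72, 3.94, 4.08 and 4.45 CPM in 4-week HFD (log2 fold change -2.50 ± 0.33). The long entry was at 3.94, 6.56, 7.86, 8.76 and 14.5 CPM in 4-week CD and 7.33, 8.75, 9.40, 13.3 and 16.9 CPM in 4-week HFD, with overlapping ranges and a log2 fold change of 0.42 ± 0.36. The share of Atf7 reads on the short entry had a median of 77.3% in 4-week CD (lowest 39.6%, highest 83.7%) and 31.0% in 4-week HFD (18.02% to 32.7%). It was 21.6%, 26.8% and 39.7% at the median in 16-week CD, in 16-week HFD and among the low weight gainers. So the Atf7 result concerns reads on these 390 bases and not the whole gene. Reads of Atf7-201 and of the end of Atf7-210 could not be told apart. The annotated gene Gm28047 also spans these bases on the same strand, but only Atf7 transcripts have an annotated exon there. Reads from unspliced RNA of Gm28047 could not be told apart.

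**Figure D3:**
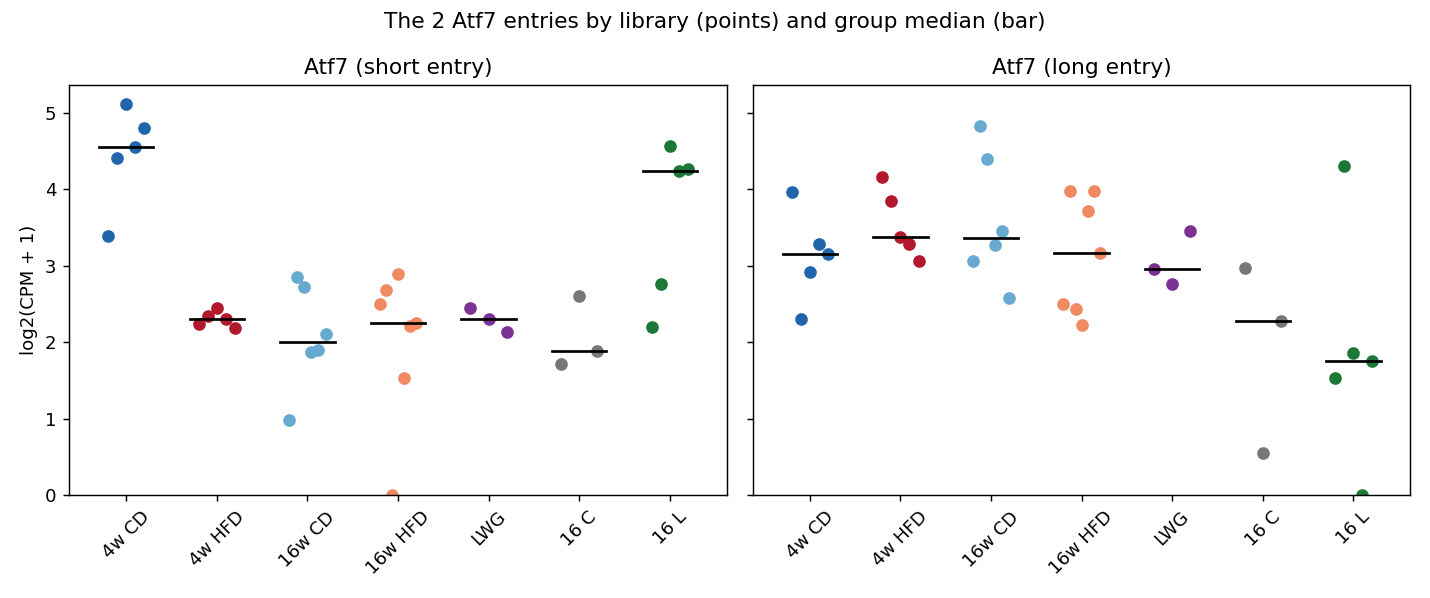
Level of the short (left) and long (right) Atf7 entries as log2(CPM + 1), with 1 point per library and a bar at the group median. The short entry is high in 4-week CD and in 3 of the 5 16 L libraries, and the long entry is not.

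Samd1 (chromosome 8, 83997672 to 84000386, plus strand) was at 3.94, 8.29, 10.7, 11.8 and 12.2 CPM in 4-week CD. In 4-week HFD it was at 0.656, 1.47, 1.61, 1.86 and 1.86 CPM. The groups did not overlap, and the log2 fold change was -2.59 ± 0.41. The gene had few reads, from 0 to 61 per library, and was left out of the 16-week diet comparison as too low, where the medians were 2.47 CPM in CD and 1.97 CPM in HFD with 0 reads in some libraries of both groups. A count of 0 allows up to 3 reads in a library, counting error only.

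Khdrbs3 (chromosome 15, 68928420 to 69093512, plus strand) was at 3.41, 12.2, 14.9, 15.6 and 41.2 CPM in 4-week CD, and in 4-week HFD at 1.67, 2.41, 2.60, 2.88 and 3.73 CPM. The ranges overlapped through 4-week CD replicate 11, and the log2 fold change was -2.65 ± 0.51. The 16-week HFD libraries (6.00, 9.41 and 16.6 CPM as lowest, median and highest) lay entirely above 4-week HFD, and its fold change at 16 weeks was 0.86 ± 0.41 on the log2 scale. The highest single value was 156 CPM in 16 L replicate 18, the library with the oviduct markers, against 3.80 to 57.3 CPM in the other 16 L libraries.

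Of the genes for signalling and release, Unc13a (chromosome 8, 71624417 to 71671757, minus strand) had the tightest 4-week HFD group. It was at 13.3, 13.4, 13.5, 13.97 and 14.2 CPM there, and at 28.3, 40.6, 42.5, 52.0 and 66.8 CPM in 4-week CD (log2 fold change -1.76 ± 0.25). Grin3b (chromosome 10, 79970715 to 79977190, plus strand) had the steepest fold change of the 10 genes, at 3.59, 6.39, 9.76, 14.2 and 20.9 CPM in 4-week CD and 0.557, 0.628, 0.875, 1.22 and 1.85 CPM in 4-week HFD (-3.33 ± 0.52). Neither gene overlapped between the 4-week groups. Grin3b rested on 3 to 17 reads per 4-week HFD library and was too low to be tested at 16 weeks.

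Map3k12 (chromosome 15, 102497649 to 102517064, minus strand) was the most abundant of the genes with Fads6, and had 119 to 3928 reads per library. In 4-week CD it was at 134, 343, 479, 522 and 534 CPM, and in 4-week HFD at 92.1, 94.5, 106, 123 and 167 CPM. The log2 fold change was -1.82 ± 0.35, and 4 of 5 HFD libraries were below all CD libraries. Map3k12 and Atf7 lie next to each other on chromosome 15, with Tarbp2 between them at 16.6 CPM in both 4-week groups (SD 5.07 in CD and 4.23 in HFD).

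Fads6 (chromosome 11, 115279622 to 115297663, minus strand) was at 124, 176, 256, 291 and 319 CPM in 4-week CD and 55.4, 58.2, 63.8, 64.1 and 89.9 CPM in 4-week HFD, without overlap (log2 fold change -1.84 ± 0.29). Capn12 (chromosome 7, 28881656 to 28893585, plus strand) was at 5.20, 11.3, 14.2, 14.4 and 18.9 CPM in 4-week CD and 2.84, 3.14, 3.44, 4.08 and 4.37 CPM in 4-week HFD, also without overlap (-1.84 ± 0.35). At 16 weeks their log2 fold changes were 0.58 ± 0.25 and 1.38 ± 0.47. Capn12 reached the largest 16-week value of the genes, with 5 of 7 HFD libraries above all 16-week CD libraries.

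Nav1 differed from the rest in its order of groups. Its main entry (chromosome 1, 135434580 to 135585355, minus strand) was highest in 16-week HFD, at 83.6, 135 and 199 CPM as lowest, median and highest, against 37.1, 58.7 and 95.6 CPM in 16-week CD. At 4 weeks it was at 58.4, 92.4, 98.5, 106 and 134 CPM in CD and 36.0, 37.0, 42.7, 57.4 and 63.5 CPM in HFD. The log2 fold changes were -1.06 ± 0.27 at 4 weeks and 0.98 ± 0.26 at 16 weeks, of opposite sign. By RPM the order of the first groups turned, with medians of 121 in 4-week CD and 118 in 16-week HFD. The second Nav1 entry (135606447 to 135688105) has the same ends as the long non-coding RNA Gm38399, had 0 to 39 reads per library, and gave a log2 fold change of -0.67 ± 0.54 at 4 weeks.

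Per kilobase of exon, which allows levels of different genes to be set side by side, Map3k12 (53.3 CPM per kb) and Fads6 (38.5) had the highest medians in 4-week CD of the 9 genes other than Atf7. Phox2a was at 9.20, Nav1 at 5.69, Samd1 at 4.49, Khdrbs3 at 4.08, Unc13a at 3.36, Capn12 at 2.97 and Grin3b at 2.96. Genes expressed at such different levels shared the high position of 4-week CD, which the choice of the genes favoured. Adjacent groups in the order of medians mostly overlapped within each gene, and the plot of levels shows where they did not.

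In the fits across all genes, the 10 leading entries had log2 fold changes from -3.33 to -1.06 at 4 weeks (median -2.17), where the median of all 11727 genes tested was -0.01. All 10 were among the 3.06% of genes called lower, and 7 of the 10 had every 4-week HFD library below every 4-week CD library, as did 3.74% of the genes tested. These counts are fixed by the choice of the genes. Without 4-week CD replicate 8, 3 of them were called, and without 4-week HFD replicate 5, 6 were. Their places by p-value at 4 weeks were 1 (short Atf7), 3 (Phox2a), 4 (Unc13a), 7 (Grin3b), 8 (Fads6), 9 (Samd1), 48 (Capn12), 51 (Map3k12), 54 (Khdrbs3) and 321 (Nav1). In the contrast of the diet effect at 16 weeks minus that at 4 weeks, where 1.74% of genes were called higher, the places were 1 for Phox2a, 2 for Fads6, 3 for Unc13a, 7 for Map3k12, 8 for Nav1, 9 for Capn12, 11 for Khdrbs3, 166 for short Atf7, 612 for Grin3b and 2065 for Samd1. The differences there ran from 1.96 ± 0.35 (Unc13a) to 3.55 ± 0.68 (Khdrbs3) on the log2 scale. Just outside the choice stood Egln1 (place 2), Gm10497 (5), Slc36a1 (6) and Acrbp (10) at 4 weeks, with log2 fold changes of -1.55, -2.67, -1.76 and -2.67. In the contrast over time these were Zfhx3 (4), Rhou (5), Ptgfrn (6) and Ptpn12 (10), with differences of 2.57, 2.28, 2.38 and 2.26.

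At 16 weeks of diet, an arm of the same contrast, the 8 leading entries that passed the filter had log2 fold changes from -0.06 (short Atf7) to 1.38 (Capn12), with a median of 0.50. The choice favoured higher values here, so the counts that follow are a description and no test. None of the entries was called by edgeR, where 0.0276% of all genes were. At an unadjusted p under 0.05 there were 3 of 9 (25.3% of all genes). DESeq2 called 2, and edgeR called 4 without 16-week CD replicate 9 and 1 without replicate 13. Nav1, at 0.98 ± 0.26, Capn12 and Khdrbs3 were the highest. Fads6, Map3k12, Phox2a and Unc13a were at 0.58 ± 0.25, 0.43 ± 0.21, 0.36 ± 0.31 and 0.16 ± 0.23. Scaled by library totals, Unc13a turned to -0.17 and Phox2a was at -0.0001, and the short Atf7 entry ran from -0.22 to 0.18 when a replicate was left out. For Unc13a no 16-week HFD library lay outside the range of 16-week CD.

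**Figure D4:**
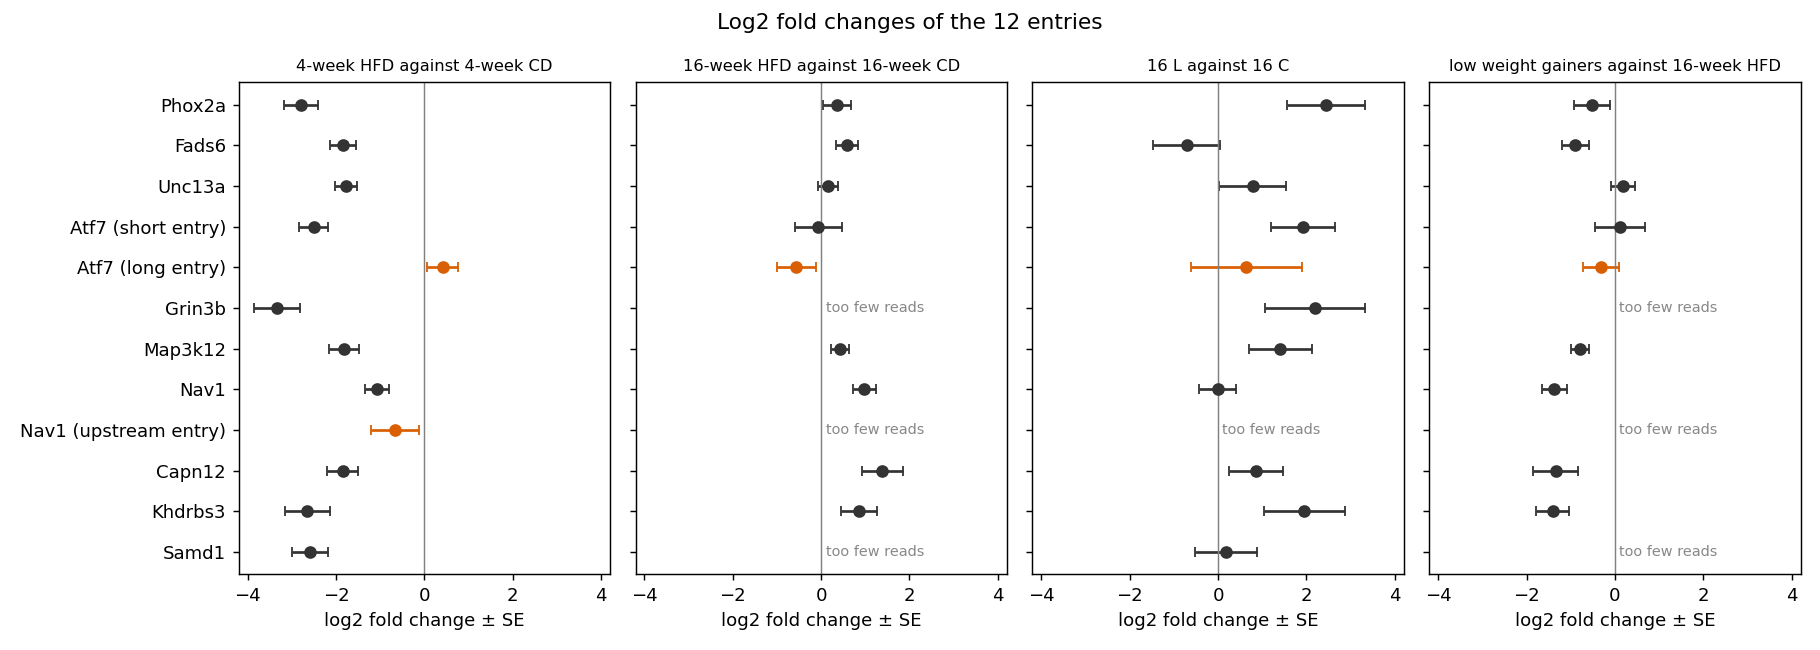
Log2 fold changes with their standard errors for the 12 entries in 4 comparisons, with the other Atf7 and Nav1 entries in orange. At 4 weeks the 10 leading entries lie between -3.33 and -1.06 and the other 2 do not reach that range, and in 16 L the error bars are wide.

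The leptin experiment was the comparison in which no library had been used to choose the genes, and it asks whether leptin injection moved them. In 16 L replicates 18, 19, 20, 21 and 23, Phox2a was at 8.90, 6.40, 33.6, 84.8 and 41.6 CPM, against 4.55, 9.83 and 3.86 CPM in 16 C. In the same order Unc13a was at 8.04, 9.80, 65.5, 85.5 and 69.6 CPM in 16 L, against 30.3, 25.0 and 27.0 CPM in 16 C. Grin3b was at 1.20, 0.800, 17.5, 22.1 and 15.2 CPM, against 0.758, 3.20 and 2.70 CPM. In each of these genes replicates 20, 21 and 23 were above all 16 C libraries and replicates 18 and 19 were not. For Map3k12 the values were 238, 61.2, 655, 669 and 639 CPM, against 113, 208 and 186 CPM, so that 4 of 5 were above 16 C. Fads6 went the other way, at 7.53, 49.3, 143, 206 and 140 CPM against 205, 161 and 168 CPM, with 4 of 5 below all 16 C libraries. Samd1 had 2 of 5 below and 2 above all 16 C libraries, and Nav1 had 1 below and 2 above. Replicates 20, 21 and 23 exceeded all 16 C libraries in 7 of the 10 leading entries, a count not taken over all genes.

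None of the 11 entries tested passed an adjusted p of 0.05 between 16 L and 16 C with edgeR's quasi-likelihood test, where 4.06% of 11723 genes were called higher and 4.5% lower. At an unadjusted p under 0.05, 2 of the 11 passed, against 32.4% of all genes. The log2 fold changes were 2.44 ± 0.88 for Phox2a (adjusted p = 0.0990), 1.92 ± 0.73 for short Atf7 (adjusted p = 0.109), 1.96 ± 0.92 for Khdrbs3 (adjusted p = 0.172), 1.41 ± 0.72 for Map3k12 (adjusted p = 0.200) and 2.19 ± 1.14 for Grin3b (adjusted p = 0.209), all by the same test. The other leading entries were between -0.71 (Fads6) and 0.86 (Capn12), and the median of all genes was itself shifted by 0.27. No leading entry had every 16 L library above every 16 C library, as 12.2% of the genes tested did. DESeq2 called 2 entries, scaling by library totals 4 and a fit of all 34 libraries 5, so the call rests on the tool and scaling. Without 16 L replicate 18 or without replicate 19, 2 entries passed in each case. After an offset for GC content the fold changes of Capn12 and Samd1 turned to -0.15 and -1.65.

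The low weight gainers were compared with both 16-week groups, whose libraries had been part of the choice. For that reason no p-values are given, and the counts of calls are a description and no test. The contrast over time favoured genes higher in 16-week HFD, so a fall against those libraries was favoured as well. Against 16-week HFD, 4 of 9 entries tested were called lower, where 9.93% of all genes were. In the same comparison 7 of 10 mitochondrial genes tested (list median -1.57) and 3 of 5 nuclear RNAs (list median -1.01) were lower, and the rank correlation of the fold change with GC content was 0.50 over all genes. Their part in the values of the 10 genes was not tested. Nav1 was at 40.2, 52.8 and 64.2 CPM in the 3 low weight gainers, all below the 7 16-week HFD libraries (log2 fold change -1.37 ± 0.28). Khdrbs3 was at 2.35, 3.94 and 5.45 CPM (-1.40 ± 0.37) and Map3k12 at 60.0, 78.6 and 86.9 CPM (-0.79 ± 0.21), also without overlap. Of all genes, 7.58% had every low weight gainer below every 16-week HFD library. Fads6, at 62.0, 69.3 and 108 CPM, overlapped with 16-week HFD (-0.90 ± 0.31), and 9 of the 10 fits that left out 1 library did not call it. Without low weight gainers replicate 23 only 1 entry was called, and without replicate 21 there were 2. Capn12, at -1.34 ± 0.51, was not called. Grin3b went the other way, at 2.09, 2.15 and 2.42 CPM, above all 7 16-week HFD libraries (0 to 1.81 CPM) and all 6 16-week CD libraries (0.453 to 1.94 CPM). It had 29 reads in the 3 low weight gainers together, 15 in the 16-week HFD libraries and 29 in the 16-week CD libraries. Of all genes, 10.5% had every low weight gainer above every 16-week HFD library, and 3.37% above every 16-week CD library. Against 16-week CD none of the 10 entries tested was called by edgeR, where 0.00861% of all genes were. At an unadjusted p under 0.05 none of the 10 passed, against 11.2% of all genes. There the fold changes ran from -0.54 (Khdrbs3) to 0.34 (Unc13a) over the 9 leading entries tested.

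Of the 10 leading entries, 6 overlap a gene on the opposite strand (60.0%). The share was 28.5% of the genes tested at 4 weeks and 36.1% of the other 349 genes lower at 4 weeks. The Smart-seq2 and Nextera protocol of these libraries does not mark the strand, so reads in the shared bases cannot be told apart. The 6 genes share bases with 7 others, of which 5 were tested at 4 weeks and 2 were called lower by edgeR's quasi-likelihood test (none without 4-week CD replicate 8 or 4-week HFD replicate 5, and 1 without 4-week CD replicate 2 or 7 or without 4-week HFD replicate 3, 4, 13 or 14). Pcbp2, a poly(rC)-binding protein gene, shares 2411 bases with Map3k12 and was at 502 ± 166 CPM (SD, n = 5) in 4-week CD and 196 ± 56.0 CPM in 4-week HFD (log2 fold change -1.39 ± 0.31, adjusted p = 0.0281). ORF61 shares 2243 bases with Grin3b and was at 64.0 ± 30.7 and 14.7 ± 6.87 CPM (-2.16 ± 0.39, adjusted p = 0.0183). These are the pairs with the longest overlap, and over the 34 libraries the rank correlation within them was 0.96 and 0.76.

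The other pairs share fewer bases. Inppl1, a lipid phosphatase gene, shares 534 bases with Phox2a and had a log2 fold change of -0.16 ± 0.23. Glt25d1 overlaps Unc13a and was at 0.00 ± 0.22. Actn4, the gene of an actinin, shares 338 bases with Capn12 and was at 0.27 ± 0.23. None of these 3 was called (adjusted p = 0.703, 0.993 and 0.481 by the same test). In 16 L against 16 C, Inppl1 was higher (2.39 ± 0.63, adjusted p = 0.0469), while Pcbp2 and ORF61 were at 1.03 ± 0.62 and 2.48 ± 0.95 and did not pass (adjusted p = 0.268 and 0.113). Of the nearest tested genes on either side, Clpb and Folr1 beside Phox2a, Fdxr and C630004H02Rik beside Fads6, Pgls and Jak3 beside Unc13a, Wdr18 and Cnn2 beside Grin3b and Prkaca and Rfx1 beside Samd1 did not pass at 4 weeks, and neither did those beside the remaining genes.

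**Figure D5:**
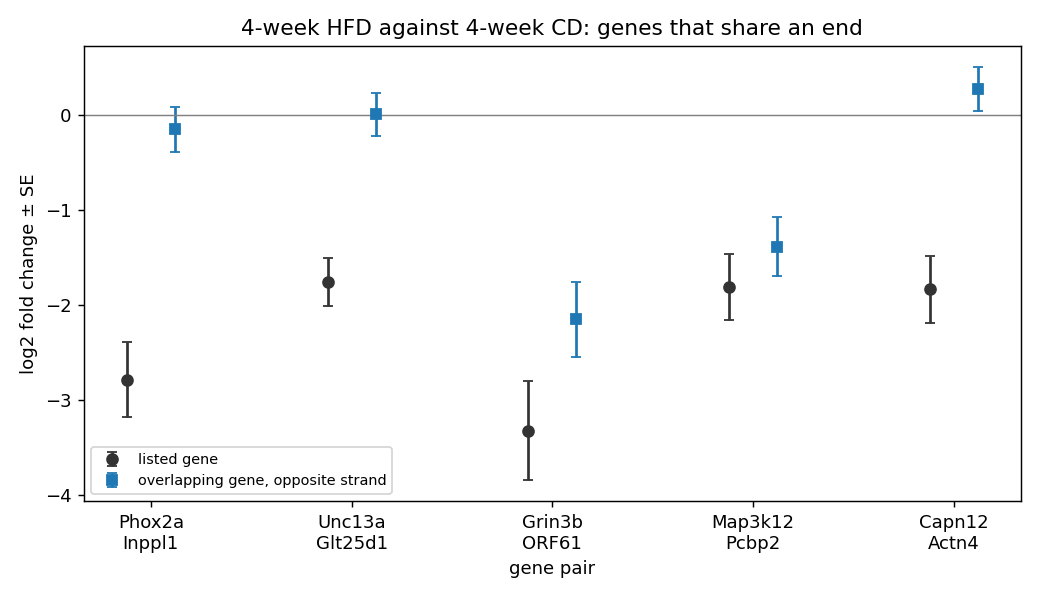
Log2 fold change with its standard error in 4-week HFD against 4-week CD for 5 of the genes (circles) and the gene on the opposite strand that shares bases with each (squares). Grin3b with ORF61 and Map3k12 with Pcbp2 are both below 0, and the squares of the other pairs are near 0.

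Over the 34 libraries the 10 leading entries were correlated with each other, with a median rank correlation of 0.52 over 45 pairs (0.01 to 0.82) on log2(CPM + 1), and of 0.42 once the group means were removed. The long Atf7 entry was correlated with them at -0.68 to -0.09. The genes were chosen by the same contrasts, which favours correlation among the leading entries, and the libraries share groups and depth. The values are a description, and the correlation between pairs of other genes was not taken. The genes most like each one, 3 per gene by rank correlation over the 34 libraries, were led by Pcbp2 for Map3k12 (0.96), Fam98b for Khdrbs3 (0.89), Fam70a for Capn12 (0.86), Ankrd10 for Fads6 (0.85), Bptf for Nav1 (0.85), Zfp341 for Grin3b (0.83), Traf3 for short Atf7 (0.82), Cnnm3 for Unc13a (0.81), 9130014G24Rik for Phox2a (0.76) and Ngrn for Samd1 (0.75). Cnnm3 was among the 3 for both Fads6 (0.83) and Unc13a. The median over the 36 gene pairs of all 12 entries was 0.83, and 0.67 with the mean of each group taken out.

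The 10 genes were not alike in base composition. The G and C share of the longest transcript was 67.3% in Samd1, 63.8% in Phox2a, 63.4% in Grin3b, 58.5% in Capn12, 55.1% in Unc13a, 52.9% in Fads6, 51.2% in Nav1, 48.3% in Map3k12, 47.3% in Atf7 and 41.4% in Khdrbs3. Their median of 54.0% compares with 49.5% over the 10623 tested genes with a transcript, 54.4% over the other genes lower at 4 weeks and 44.0% over those higher. The rank correlation of the log2 fold change with this share over all genes was -0.27 at 4 weeks, -0.43 at 16 weeks and 0.37 in 16 L against 16 C, and its part in the results was not tested beyond the GC offset. With that offset the 4-week fold changes were -2.14 in Phox2a, -2.70 in Grin3b and -1.73 in Samd1, the 3 genes richest in G and C, and -2.89 in Khdrbs3, the poorest.

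The promoters of the 3 genes with the clearest difference in diet effect over time, and of Map3k12, are shown as a description. Each run is 300 bases of RefSeq sequence on GRCm38.p6, from 250 bases before to 50 after the annotated start, read in the direction of the gene. Capitals mark the letters GGGCGG (the GC box) and CCAAT on either strand. The regions are chr7:101818063-101818362 (plus strand) for Phox2a, chr11:115297513-115297812 (minus) for Fads6, chr8:71671708-71672007 (minus) for Unc13a and chr15:102516955-102517254 (minus) for the first of 2 Map3k12 starts.
Phox2a: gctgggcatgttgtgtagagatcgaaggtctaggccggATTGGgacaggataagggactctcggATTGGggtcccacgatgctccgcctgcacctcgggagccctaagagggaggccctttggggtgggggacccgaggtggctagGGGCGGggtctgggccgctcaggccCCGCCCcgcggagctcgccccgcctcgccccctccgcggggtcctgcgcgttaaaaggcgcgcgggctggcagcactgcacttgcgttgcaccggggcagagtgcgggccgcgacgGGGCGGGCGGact
Fads6: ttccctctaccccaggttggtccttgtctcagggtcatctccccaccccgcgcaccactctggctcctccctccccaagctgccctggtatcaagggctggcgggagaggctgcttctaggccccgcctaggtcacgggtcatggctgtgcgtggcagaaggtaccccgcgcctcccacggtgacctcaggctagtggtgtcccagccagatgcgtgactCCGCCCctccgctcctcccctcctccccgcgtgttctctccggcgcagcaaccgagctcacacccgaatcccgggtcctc
Unc13a: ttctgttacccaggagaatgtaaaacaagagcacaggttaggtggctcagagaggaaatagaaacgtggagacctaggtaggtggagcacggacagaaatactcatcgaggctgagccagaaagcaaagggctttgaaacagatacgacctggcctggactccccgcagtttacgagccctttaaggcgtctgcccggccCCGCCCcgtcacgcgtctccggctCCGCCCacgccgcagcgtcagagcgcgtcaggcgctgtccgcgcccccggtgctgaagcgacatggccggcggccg
Map3k12: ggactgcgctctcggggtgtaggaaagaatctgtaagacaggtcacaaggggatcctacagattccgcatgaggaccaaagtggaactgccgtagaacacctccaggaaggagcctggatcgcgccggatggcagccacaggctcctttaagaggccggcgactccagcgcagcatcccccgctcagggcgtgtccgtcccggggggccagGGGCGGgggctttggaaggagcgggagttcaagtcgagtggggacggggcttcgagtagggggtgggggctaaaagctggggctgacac

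RefSeq promoters were found for 8 of the 10 genes, with 9 starts in all, and Khdrbs3 and Samd1 had no entry. The Atf7 promoter (chr15:102625415-102625714, minus strand) lies at the long Atf7 entry and not at the short one. The log2 fold change of the long entry at 4 weeks was 0.42 ± 0.36. GGGCGG occurred in 7 of the 9, and in 35.7% of the 32851 promoters of the table. CCAAT occurred in 1 (Phox2a, at 2 positions) and in 37.4% of all. TATAAA occurred in 2 (Nav1 and Grin3b, 13.6% of all), CACGTG in 2 (the second Map3k12 start and Atf7, 7.15%), TGACTCA in 1 (Capn12, 5.20%) and TGACGTCA in none (1.79%). No motif searched was in all 9. In Phox2a GGGCGG was found 4 times, of which 2 overlap at the end of the window. The median G and C share of the 9 promoters was 63.7%, against 52.7% over all, and Grin3b was lowest at 48.3%. A match is only a run of letters and no evidence that a factor binds.

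The families around the genes were described from lists of related genes, leaving out the 10 themselves, with edgeR's quasi-likelihood test over all genes. At 4 weeks, 1 of 7 tested fatty acid desaturases passed, and it was lower. This was Degs2, which acts on sphingolipids (-1.84 ± 0.40, adjusted p = 0.0267), at 22.6 ± 11.5 CPM (SD, n = 5) in CD and 6.43 ± 1.96 CPM in HFD. Of 15 vesicle priming and fusion genes, 1 was lower, the calcium sensor Syt7 (-1.45 ± 0.39, adjusted p = 0.0452). Of 17 ATF, CREB and AP-1 genes, 1 was lower, Atf5 (-1.88 ± 0.36, adjusted p = 0.0189), and of 4 glutamate receptor genes tested 1, the kainate receptor subunit Grik5 (-2.06 ± 0.52, adjusted p = 0.0384). Over all genes 3.06% were lower. In each of these short lists 1 call was a larger share than that, but it rests on 1 gene. Whether the lists exceed the share over all genes was not tested.

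Most of the remaining lists also held 1 call each. In the DLK and JNK pathway 1 of 16 was lower, Map3k5 (-0.90 ± 0.23, adjusted p = 0.0384), and of 13 navigator and microtubule-end genes 1, Trio (-1.23 ± 0.28, adjusted p = 0.0289). Of 7 calpain genes 1 was lower, Capns1, the small regulatory subunit (-1.80 ± 0.40, adjusted p = 0.0281), and of 15 STAR and related RNA-binding genes 1, Safb (-1.08 ± 0.27, adjusted p = 0.0356). Of 16 genes that work with SAMD1 and the demethylase LSD1, or share their domains, 3 were lower. These were Phf21a (-1.06 ± 0.26, adjusted p = 0.0356), Samd11 (-1.83 ± 0.46, adjusted p = 0.0384) and Rcor1 (-0.91 ± 0.24, adjusted p = 0.0418). Of the list of autonomic neuron regulators and noradrenergic genes around Phox2a, only Slc18a2, a vesicular monoamine transporter and not a regulator, had enough reads to be tested, and its log2 fold change was 0.02 ± 0.33 (adjusted p = 0.978). The list medians ran from -0.73 (glutamate receptors) to 0.31 (calpains), where the median over all genes was -0.01. Of 18 cumulus and granulosa markers tested, 1 passed at 4 weeks, Fshr, the receptor for follicle-stimulating hormone (1.87 ± 0.42, adjusted p = 0.0281).

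In 16 L against 16 C, the same families held genes in both directions by the same test. Map3k1 (-4.80 ± 0.88, adjusted p = 0.0197) was lower and Mapk10, the JNK3 kinase (3.30 ± 0.68, adjusted p = 0.0267), was higher in the DLK and JNK list of 16. Clasp2 was lower (-3.99 ± 0.53, adjusted p = 0.00855), with Dctn1 (2.59 ± 0.61, adjusted p = 0.0369) and Mapre3 (2.61 ± 0.62, adjusted p = 0.0374) higher among 12 microtubule-end genes. Mean Clasp2 was 700 CPM in 16 L and 11170 CPM in 16 C, against 601 CPM in 4-week CD. Mean Map3k1 was 108, 3027 and 99.0 CPM in the same groups. The source of the high 16 C values was not tested, and 16 L includes replicate 18, with its oviduct markers. Among 15 RNA-binding genes Qk, Ptbp2 and Tra2b were lower (-2.17, -2.02 and -1.44) and Sf1 was higher (2.70). In the SAMD1 and LSD1 list of 16, Rcor3 and Sfmbt2 were lower and Cxxc1 and L3mbtl3 were higher. Vamp2, of vesicle fusion, and Jund, of AP-1, were the single called genes of their lists and were higher (2.56 ± 0.67 and 2.98 ± 0.80). No desaturase, glutamate receptor or calpain gene was called by edgeR, with 2 of 6, 2 of 4 and 2 of 7 at an unadjusted p under 0.05.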

How the data were processed

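Polyadenylated RNA of CCs from 34 mice was amplified by Smart-seq2, made into Nextera XT libraries without molecular identifiers, and sequenced. Per the submitters' processing notes, Trim Galore 0.4.2, HISAT2 2.0.5 and GRCm38 were used, and the counting program and strand setting are not given in the sources used here. The authors deposited whole-number read counts per gene entry, without normalization (25965 entries). Total counts were 1104611 to 13207018 per library. Groups and replicate numbers follow the labels, with 1 library per mouse, and intervals cover counting error only.

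Differences were tested by edgeR 4.0.16 under R 4.3.3 (normalization by TMM, filterByExpr, robust quasi-likelihood test, two-sided, Benjamini-Hochberg, adjusted p under 0.05), fitted on the libraries of each comparison alone. Repeated symbols stayed separate. Entries that failed the filter were described by exact permutation of log2(RPM + 1), with scipy 1.17.1. Fits were tested on simulated data. Transcript length and GC content came from GENCODE M21, matched by symbol.

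The 10 genes, the related lists and the tests were chosen with earlier results of these data known. Named are the 10 genes, their neighbours, up to 4 called genes per list and comparison, the 3 most alike genes and cell type markers. Alternatives were DESeq2 1.42.0, RLE, library totals, no filter, a single fit of all 34 libraries, a minimum of 10 counts per library, counts drawn down to the smallest library, each replicate left out, a pseudocount of 0.1 and, added after seeing the data, a GC offset.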

Additional observations from a re-analysis of the deposited data

Results flagged for a closer look

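A sample far from the others of its group was looked for in the 12 entries and the 5 groups with 4 to 10 libraries, 60 tests in all, of which chance flags about 1 in 20. Capn12 in 16 L replicate 19 was at 3.20 CPM, against 15.7 to 23.7 CPM in the other 16 L libraries. Samd1 in 4-week HFD replicate 4 was at 0.656 CPM, from 3 reads, against 1.47 to 1.86 CPM in the other 4-week HFD libraries. Both were the lowest of their 5 libraries.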

How the results depend on the processing

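No paired analysis was possible because the replicate numbers name different mice and the groups compared share none of them. For the 12 entries, counts of calls are a test only in 16 L against 16 C. The other comparisons used libraries of the choice, and their counts are a description. Of the 12 entries, 10 were called at 4 weeks (6 with counts drawn down to the smallest library, and 3 to 10 when a replicate was left out, the 3 without 4-week CD replicate 8 and 6 without 4-week HFD replicate 5), with every fold change of the 10 below 0 under each alternative run. At 16 weeks 0 were called, against 2 with DESeq2, 2 with all 34 libraries in 1 fit and 0 to 4 without a replicate (1 without 16-week CD replicate 13 and 4 without replicate 9). For the difference over time 8 were called, 4 with at least 10 counts in every library, and 7 to 9 without a replicate. In 16 L, 0 were called, against 2 with DESeq2, 5 with all 34 libraries, 4 with library totals and 0 to 2 without a replicate. In low weight gainers against 16-week HFD, 4 were called, 1 with all 34 libraries, 2 with at least 10 counts in every library, and 1 to 5 without a replicate. Against 16-week CD none was called under any alternative. Called neighbours at 4 weeks numbered 2, with 0 in the fit of all 34 libraries, 1 with the GC offset and 0 to 3 without a replicate (0 without 4-week CD replicate 8 or 4-week HFD replicate 5). The median likeness fell from 0.83 to 0.67 with group means removed. The causes were not tested. In the 16-week diet comparison Unc13a turned to -0.17 and Phox2a to -0.0001 with library totals, and short Atf7 ran from -0.22 to 0.18 without a replicate. Directions that turned in 16 L were Fads6 (0.20 with library totals), Nav1 (0.16 with at least 10 counts, 0.0374 with no filter, 0.0024 drawn down, 0.85 with totals, -0.16 to 0.16 without a replicate), Capn12 (-0.15 with the GC offset) and Samd1 (-1.65 with the GC offset, -0.18 to 0.42 without a replicate). In low weight gainers against 16-week HFD they were Unc13a (-0.20 with the GC offset, -0.18 to 0.42 without a replicate) and short Atf7 (-0.0892 to 0.25 without a replicate). Against 16-week CD they were short Atf7 (-0.23 with totals, -0.0894 to 0.28 without a replicate), Capn12 (-0.22 with the GC offset, -0.0774 with totals, -0.25 to 0.30 without a replicate), Phox2a (-0.24 to 0.0306), Unc13a (-0.011 to 0.64) and Samd1 (-1.43 to 0.0534). In 16 L the depth of 1104611 counts in the shallowest library limits entries such as Samd1, with 7 reads there.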

Other observations

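Of the 5 nuclear RNAs tested, of 10 listed, Xist, Meg3 and Snhg11 were lower in 4-week HFD, where 3.06% of all genes were, by edgeR's quasi-likelihood test, with log2 fold changes of -1.65 ± 0.35 (adjusted p = 0.0253), -1.83 ± 0.39 (adjusted p = 0.0251) and -1.29 ± 0.35 (adjusted p = 0.0486). Xist, the RNA that silences an X chromosome, was at 746 ± 305 CPM in 4-week CD (SD, n = 5) and 241 ± 81.7 CPM in 4-week HFD. Meg3, an imprinted long non-coding RNA, was at 105 ± 63.4 and 30.1 ± 3.71 CPM. Neat1 and Malat1 did not pass, at -0.96 ± 0.32 (adjusted p = 0.0948) and -0.34 ± 0.35 (adjusted p = 0.564). In 16 L against 16 C none of the 5 was called by edgeR, with 2 at an unadjusted p under 0.05. The part of these RNAs in the levels of the 10 genes was not tested.

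Entries with too few reads for the fits were set side by side on log2(RPM + 1). For Grin3b the low weight gainers were 1.03 above 16-week HFD and 0.59 above 16-week CD, with all 3 libraries above all controls. Of all genes, 10.5% lay entirely above 16-week HFD in this way and 3.37% above 16-week CD. No test is given because the 16-week libraries were part of the choice of the genes. The second Nav1 entry did not differ beyond the spread in 16 L (exact permutation test, two-sided, p = 0.143 and adjusted p = 0.286 over 6 tests, 33 reads in the 5 libraries against 4 in 16 C).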
